A study of Mus musculus with 9 samples.

Results

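The 10 circadian clock genes *Per1*, *Per2*, *Per3*, *Ciart*, *Nr1d1*, *Nr1d2*, *Dbp*, *Arntl*, *Clock* and *Cry1* were followed in the striatum of adult mice. They were taken as the rows of the gene table whose Ensembl identifier maps to these symbols. All 10 were found among the 15464 genes listed, and all 10 passed the filter on low values that left 14239 genes for testing (3 or more libraries with a value of 10 or above). The animals were male littermates aged 10 to 12 weeks in a C57BL/6J background, kept on a light–dark cycle of equal light and dark. They carried the *Shank3B* mutation, which targets exons of the synaptic scaffold gene *Shank3* in every cell of the body. WT mice have 2 intact alleles, HET mice 1 and KO mice 0, with 3 mice per genotype and 1 striatum per mouse and library. The mice were anesthetized with isoflurane and decapitated, and the time of day is not given in the sources used here.

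Values are normalized counts, that is estimated reads per gene divided by a factor for library size. Their sum lay between 30830020 and 33790296 per library and does not tell how many reads were sequenced. HET replicate 3 and KO replicate 3 stood apart on the first principal component, which held 33.6% of the variance, and the clock gene results they move most are also given without them. *Shank3* itself lay between 6043 and 8812 normalized counts in WT, between 7098 and 8049.9 in HET and between 10237 and 10798 in KO. This gene-level sum includes exons outside the targeted part and is therefore no check of the deletion. The striatal marker *Ppp1r1b*, which encodes DARPP-32, was at 12449 to 31982 in all 9 libraries. *Slc17a7*, a marker of cortical excitatory neurons, was also high, at 26609 to 43336. In whole tissue, fewer cells of a type and less RNA per cell cannot be told apart.

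The clock of mammalian cells is a transcriptional feedback loop. The activators CLOCK and BMAL1 (the product of *Arntl*) bind E-boxes and switch on *Per*, *Cry*, *Nr1d1*, *Nr1d2*, *Dbp* and *Ciart*, and the PER, CRY and CIART proteins then hold the activators back. REV-ERB proteins, made from *Nr1d1* and *Nr1d2*, repress *Arntl* through ROR elements, so that *Arntl* runs opposite in phase to *Nr1d1* and *Dbp*. *Cry1* peaks later than the other E-box genes, since it is also held down by REV-ERB, and *Clock* mRNA cycles weakly in many tissues. The striatum keeps such a rhythm outside the master clock of the suprachiasmatic nucleus.

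To show clock elements near these genes, the 250 bases before a RefSeq start site were read for the members that hold one there (build GRCm38.p6). Capitals mark the motif, and each sequence runs 5′ to 3′ on the strand of the gene. *Ciart*, in the minus-strand window chr3:95882229-95882478, holds 3 E-boxes (CACGTG).
Ciart: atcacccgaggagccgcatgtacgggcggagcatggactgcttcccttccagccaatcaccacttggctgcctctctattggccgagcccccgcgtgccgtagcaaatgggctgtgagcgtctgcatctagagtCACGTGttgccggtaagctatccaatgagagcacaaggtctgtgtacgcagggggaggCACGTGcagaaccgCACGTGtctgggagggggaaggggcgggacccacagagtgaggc
*Per1*, in the plus-strand window chr11:69098699-69098948, holds an E-box and further down a D-box (TTATGNAA), the element bound by DBP.
Per1: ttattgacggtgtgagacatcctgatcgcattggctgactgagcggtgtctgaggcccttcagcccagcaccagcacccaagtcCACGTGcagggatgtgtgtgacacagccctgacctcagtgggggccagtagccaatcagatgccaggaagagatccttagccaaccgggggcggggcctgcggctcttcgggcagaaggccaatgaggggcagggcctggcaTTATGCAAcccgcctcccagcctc
*Per3*, in the minus-strand window chr4:151044666-151044915, holds 2 D-boxes.
Per3: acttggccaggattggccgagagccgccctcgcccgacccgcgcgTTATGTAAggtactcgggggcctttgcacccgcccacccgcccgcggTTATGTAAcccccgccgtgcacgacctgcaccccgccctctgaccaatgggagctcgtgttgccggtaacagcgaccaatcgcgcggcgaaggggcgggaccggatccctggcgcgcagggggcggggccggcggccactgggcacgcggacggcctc
*Cry1*, in the minus-strand window chr10:85185055-85185304, holds 1 E-box.
Cry1: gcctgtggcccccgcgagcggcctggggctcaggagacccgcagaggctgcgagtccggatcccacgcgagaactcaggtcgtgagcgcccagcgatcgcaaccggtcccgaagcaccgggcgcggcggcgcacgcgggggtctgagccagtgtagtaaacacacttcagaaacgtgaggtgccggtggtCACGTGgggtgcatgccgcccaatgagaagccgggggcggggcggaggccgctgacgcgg
*Arntl* holds a ROR element (TAGGTCA) just after its second listed start site, shown with its flanks from chr7:113207530-113207558 on the plus strand.
Arntl: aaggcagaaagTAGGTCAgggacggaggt

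The search covered 250 bases before and 50 after each start, on both strands, and the E-box, D-box and ROR element matches did not overlap each other. Of the 10 genes, 9 had an entry in the promoter table, with 13 start sites, and *Per2* had none. An E-box was present in 3 of these 9 genes, a D-box in 2, a ROR element in 1 and a CRE (TGACGTCA) in 0. Over 32851 promoters of the same length, an E-box was present in 7.15%, a D-box in 3.38%, a ROR element in 2.61% and a CRE in 1.79%. The windows of *Nr1d1*, *Nr1d2*, *Dbp* and *Clock* held none of these letters. The name E-box driven used below comes from the known loop and not from these windows. *Cry1*, of the other arm, holds an E-box here, while *Per3*, *Nr1d1*, *Nr1d2* and *Dbp* hold none.

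The *Per* genes encode the repressors at the core of the loop. *Per1* (chromosome 11, 69095217 to 69109960, plus strand, GRCm38) had 5457, 3344 and 3756 normalized counts in WT replicates 1, 2 and 3. Its values were 4312, 3001 and 3774 in HET and 4964, 4129.8 and 3736 in KO. Replicate 1 was the highest library in each genotype, and the genotypes overlapped. *Per2* (chromosome 1, 91415982 to 91459324, minus strand) had 1881, 1879 and 1762 in WT, 1371, 1296 and 1841 in HET, and 1854, 1559.5 and 1921 in KO. HET replicates 1 and 2 were its lowest libraries, while HET replicate 3 lay within the WT range. *Per3* (chromosome 4, 151003652 to 151044665, minus strand) had 1995, 1982 and 2196 in WT, 1950.1, 1884 and 1493 in HET, and 2099, 1996 and 1732 in KO. All 3 HET values of *Per3* lay below the WT values, and its lowest libraries were HET replicate 3 and KO replicate 3.

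*Ciart* encodes CHRONO, a further repressor of CLOCK and BMAL1. *Ciart* (chromosome 3, 95878503 to 95882251, minus strand) had 930.2, 669 and 883 normalized counts in WT, 678, 496 and 669 in HET, and 774, 487 and 629 in KO. Replicate 2 was its lowest library in each genotype, and WT replicate 2 fell within the range of HET and KO. *Nr1d1* and *Nr1d2* encode the nuclear receptors REV-ERB alpha and beta. *Nr1d1* (chromosome 11, 98767932 to 98775333, minus strand) had 4666, 4599 and 4649.9 in WT, 4315, 3325 and 5895 in HET, and 4293, 3421 and 5764 in KO. The WT libraries were nearly equal (4638 ± 35.2, SD, n = 3), and in both mutant genotypes replicate 2 was low and replicate 3 was high. *Nr1d1* overlaps *Thra* on the other strand, and whether the counting used the strand kept by the library kit is not given in the sources used here. *Nr1d2* (chromosome 14, 18204054 to 18239127, minus strand) varied little, with 4426, 3668 and 3728 in WT, 3763, 3355 and 4043 in HET, and 4066, 3429.6 and 3948 in KO.

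*Dbp* encodes an output factor of the clock that binds D-boxes. *Dbp* (chromosome 7, 45705088 to 45710203, plus strand) had 3626, 4297 and 3761 normalized counts in WT, 3219, 3183 and 6102 in HET, and 2996, 2788 and 4527 in KO. HET replicate 3 and KO replicate 3 held its highest values, and the other HET and KO libraries lay below every WT library. Of the activators, *Arntl* (chromosome 7, 113207465 to 113314126, plus strand) had 1072, 1266 and 972 in WT, 1072, 1272 and 1082 in HET, and 1090.1, 1108 and 984 in KO. *Clock* (chromosome 5, 76209868 to 76304792, minus strand) had 2529.7, 2425 and 2147 in WT, 2635, 1976 and 2894 in HET, and 2459, 2304 and 2676 in KO. The genotypes overlapped for both activators. *Cry1* (chromosome 10, 85131700 to 85185064, minus strand) encodes a cryptochrome repressor and had 512, 568 and 538 in WT, 429, 582 and 480.5 in HET, and 486, 603 and 432 in KO. *Arntl* and *Cry1* were both highest in replicate 2 of each genotype.

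**Figure D1:**
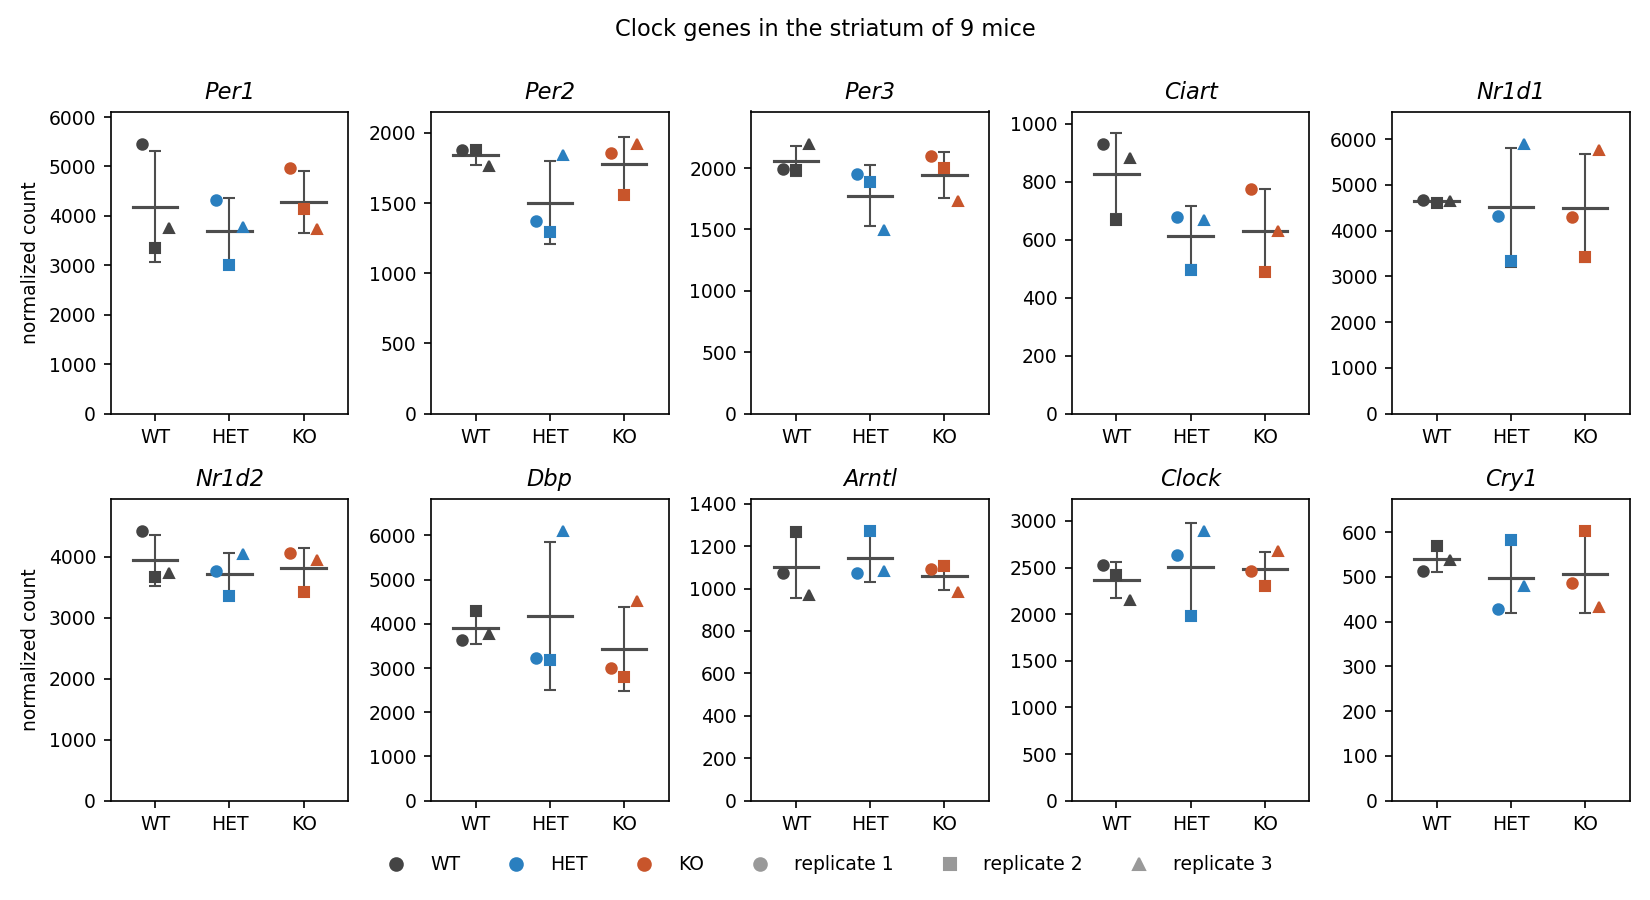
Normalized counts (y axis, from 0) of the 10 clock genes by genotype (x axis), with 1 point per library, colour for the genotype and shape for the replicate number, and the mean and SD of 3 mice as a line and bars. The genotypes overlap for the genes shown except for *Per3*, whose 3 HET points lie below the WT points, and *Dbp* is highest in HET replicate 3 (6102) and KO replicate 3 (4527).

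Across all 9 libraries, the fold between the highest and the lowest value was 2.19 for *Dbp*, 1.91 for *Ciart*, 1.82 for *Per1* and 1.77 for *Nr1d1*. It was 1.48 for *Per2*, 1.47 for *Per3*, 1.46 for *Clock* and 1.40 for *Cry1*, and 1.32 for *Nr1d2* and 1.31 for *Arntl*. On the log2 scale, the SD over the libraries placed *Dbp* at percentile 84.3 and *Ciart* at percentile 80.8 of all genes tested, and *Nr1d2* at percentile 26.7 and *Arntl* at percentile 30.8. The members of this loop thus ranged from more to less variable than most genes of the same libraries.

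Levels of different genes were compared per kilobase of annotated exon. In WT, the order was *Nr1d1* (1507 ± 11.4 normalized counts per kb, SD, n = 3), *Dbp* (1301 ± 119), *Per1* (743 ± 199), *Nr1d2* (729 ± 78), *Ciart* (366 ± 61.6), *Per2* (314 ± 11.6), *Per3* (214 ± 12.5), *Clock* (172 ± 14.4), *Cry1* (161 ± 8.37) and *Arntl* (147 ± 19.9). The WT ranges overlapped between the neighbours *Per1* and *Nr1d2*, *Ciart* and *Per2*, *Clock* and *Cry1*, and *Cry1* and *Arntl*. The E-box driven genes thus stood above the activators and *Cry1* on this scale. This order uses the length of all annotated exons together and not that of the transcripts used.

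To ask whether loss of 1 or both *Shank3* alleles went with a different level of the clock genes, the genotypes were compared with limma over all 9 libraries and 14239 genes. In HET against WT, 7 of the 10 genes were fitted lower and 3 higher, with a median log2 difference of -0.10 against -0.0027 over all genes tested. None of the 10 passed an adjusted p of 0.05 (limma, Benjamini-Hochberg adjustment), as for 0% of all genes. At an unadjusted p under 0.05, 1 of 10 was lower, against 1.11% of all genes in either direction and 0.506% in the lower one. This was *Per2*, at a log2 difference of -0.31 (SE 0.14, adjusted p = 0.999 in limma), or -19.3% with a 95% interval of -34.7% to -0.289%. The log2 difference of *Per2* was -0.46 without HET replicate 3, -0.21 without HET replicate 2 and -0.25 without HET replicate 1. Its unadjusted p stayed under 0.05 without HET replicate 3, KO replicate 2 or KO replicate 3, and was above 0.05 when any 1 of the other 6 libraries was left out. *Ciart* had the largest fitted log2 difference of the 10, at -0.43 (95% interval -0.87 to 0.01, adjusted p = 0.999 in limma), and at -0.28 without HET replicate 2. *Per3* was the 1 gene of the 10 whose HET and WT libraries did not overlap, a state found for 4.45% of all genes tested and, with HET lower, for 2.19%, and its log2 difference was -0.22 (95% interval -0.49 to 0.05). Without HET replicate 3, *Per3* was at -0.10. An exact two-sided permutation test of 3 mice against 3 can give no p below 0.1, and gave 0.1 for *Per3*, 0.2 for *Per2* and 0.2 for *Ciart*.

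In KO against WT, 8 of the 10 genes were fitted lower and 2 higher, with a median log2 difference of -0.067 against 0.0047 over all genes tested. None of the 10 passed either threshold in limma, where 0% of all genes passed the adjusted one and 0.822% the unadjusted one. No member separated the KO from the WT libraries, against 4.54% of all genes tested. *Ciart* was again fitted furthest from 0, at a log2 difference of -0.40 (95% interval -0.84 to 0.04), or -24.4%. It was at -0.23 without KO replicate 2 and at -0.56 without KO replicate 1. Both comparisons use the same 3 WT libraries, and are therefore not independent of each other. *Dbp* followed at -0.21 (95% interval -0.77 to 0.35), and the other 8 lay between -0.10 for *Cry1* and 0.07 for *Clock*. Without HET replicate 3 and KO replicate 3, the log2 difference of *Dbp* was -0.43 in KO against WT and -0.28 in HET against WT, where it had been 0.03 with all libraries. Neither passed the adjusted threshold, and both were at an unadjusted p under 0.05 in limma. The libraries left out hold the highest *Dbp* values, so the lower mutant fit followed from the choice and is no independent support. In this setting, 271 genes in all passed the unadjusted threshold in HET against WT and 217 in KO against WT. With all libraries these counts were 158 and 117.

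KO and HET were compared directly, since 2 comparisons with shared WT mice cannot show a difference between the mutants. Of the 10 genes, 8 were fitted higher in KO and 2 lower, with a median log2 difference of 0.026 against -0.00099 over all genes tested. None passed the adjusted threshold (0% of all genes) or the unadjusted one (1.31%), and none separated the libraries (4.45%). *Per2* was fitted 0.25 higher in KO (log2, 95% interval -0.05 to 0.56) and *Per1* 0.22 higher (-0.22 to 0.65). When 1 library was left out, the difference of *Per2* ran from 0.16 without HET replicate 2 to 0.41 without HET replicate 3, and that of *Per1* from 0.074 without HET replicate 2 to 0.34 without HET replicate 1. *Per2* was at 0.35 and *Per1* at 0.33 without HET replicate 3 and KO replicate 3, and *Per2* then had an unadjusted p under 0.05 in limma. *Ciart* differed by 0.03 (-0.41 to 0.47), an interval that still holds a change of -24.9% or 38.1%. Same-numbered HET and KO libraries moved together over all genes, and with the replicate number as a paired block 0 of the 10 genes passed either threshold, where 318 genes in all passed the unadjusted one (186 without the block).

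**Figure D2:**
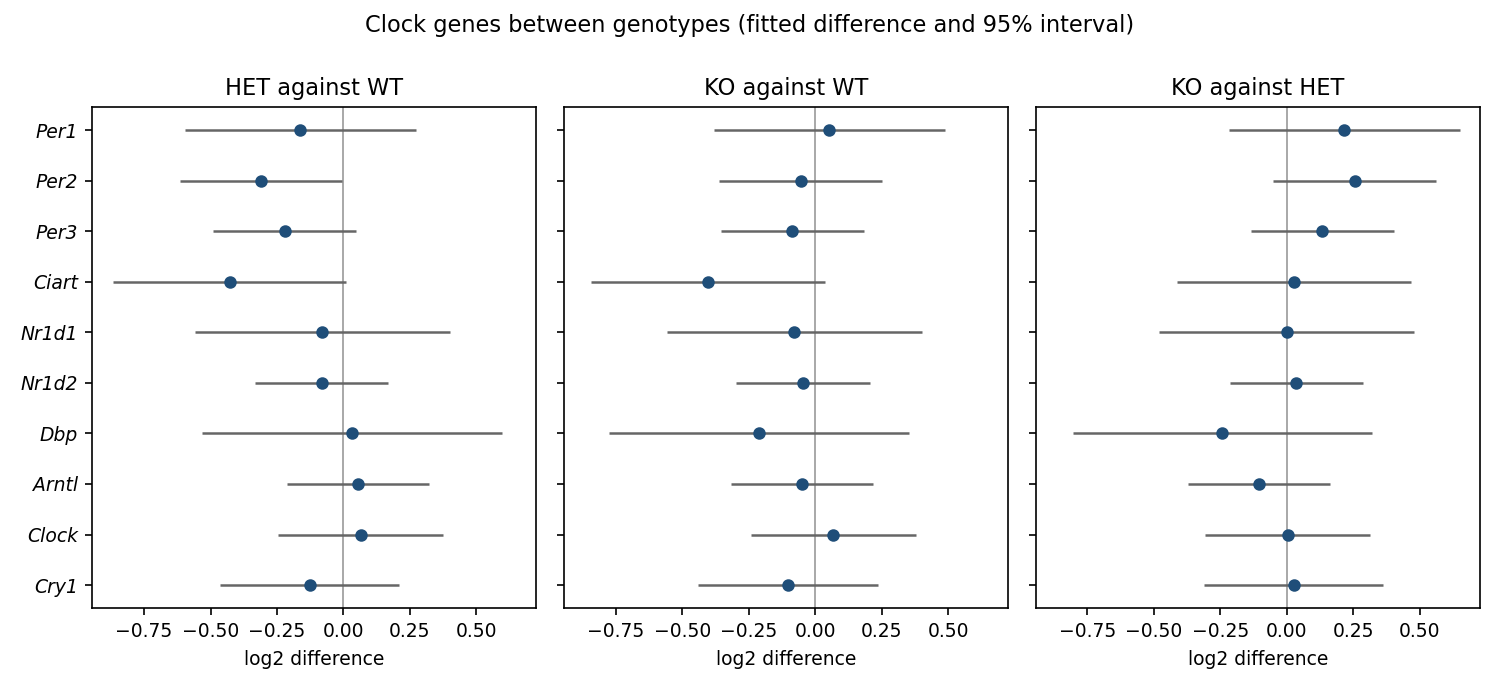
Fitted log2 differences (x axis, points) with 95% intervals (bars) for the 10 clock genes (y axis) in HET against WT, KO against WT and KO against HET, from limma over 3 mice per genotype. The intervals cross 0 in all 30 cases except *Per2* in HET against WT, which ends at -0.0042.

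Medium spiny neuron markers were fitted lower in KO than in HET in 10 of 10 cases and lower than in WT in 10 of 10 cases, with none past the adjusted threshold. Their summed normalized count was 79373 to 156018 in WT, 108212 to 138226 in HET and 70042 to 115973 in KO. Of the choroid plexus list, the defining marker *Ttr* was at 0 to 26.6. The summed count of that list was 242 to 271 in WT, 169 to 313 in HET and 164 to 314 in KO. Oligodendrocyte markers were fitted higher in HET than in WT in 6 of 6 cases (median log2 difference 0.33) and lower in KO than in HET in 6 of 6 cases (-0.31), and 3 of 3 endothelial markers were fitted higher in HET than in WT (0.25), with none past the adjusted threshold. The summed count of the oligodendrocyte markers was 154380 to 253632 in WT, 216710 to 245573 in HET and 132901 to 237527 in KO. The part of tissue makeup in the clock gene values was not tested.

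A list of 22 other clock genes holds further activators, repressors, D-box factors, kinases and ubiquitin ligases of the loop, and all 22 were tested. In limma, 0 of 22 passed the adjusted threshold in each of the 3 comparisons. At an unadjusted p under 0.05, the list held 0 genes in HET against WT, 0 in KO against WT and 1 in KO against HET, where 1.11%, 0.822% and 1.31% of all genes had one. Its median log2 difference was -0.013 in HET against WT, -0.036 in KO against WT and -0.00072 in KO against HET. The 1 gene was *Rora*, which encodes an activator of *Arntl* that competes with REV-ERB. *Rora* had 1469.7, 1472 and 1466 normalized counts in WT, 1777, 1573 and 1682 in HET, and 1553, 1259 and 1428 in KO. Its HET libraries lay above all WT and all KO libraries, with a log2 difference of -0.25 in KO against HET (SE 0.097, adjusted p = 1.00 in limma) and 0.19 in HET against WT, where 4.45% of all genes did not overlap in each comparison. *Timeless*, a partner of PER and CRY in some settings, was fitted at -0.47 in KO against HET and -0.32 in KO against WT, from low counts of 114 to 228. The other genes with the largest differences were *Bhlhe40* at -0.26 and *Wee1* at -0.16 in HET against WT, *Usp2* at -0.18 and *Wee1* at -0.15 in KO against WT, and *Arntl2* at 0.22 in KO against HET, and their intervals held 0.

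Since the hour of killing is not given, the genes of opposite phase were set against each other across the mice. Over the hours of a day, *Arntl* and *Cry1* are known to run high when the E-box genes run low. No library of known hour was at hand, so the hour itself was not tested. The 7 E-box driven genes and the 3 genes of the other arm form 21 pairs, of which 14 had a negative Pearson r over the 9 libraries, with a median of -0.33. *Arntl* and *Cry1* gave a negative r in 13 of their 14 pairs with the 7 genes, while *Clock* did so in 1 of 7. Within the 7 genes, r was positive in 16 of 21 pairs, with a median of 0.38. Without HET replicate 3 and KO replicate 3, 11 of the 21 opposed pairs were negative, 11 of 14 for *Arntl* and *Cry1* and 0 of 7 for *Clock*. With values centred on their genotype mean, 13 of 21 were negative.

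Over all 45 pairs of the 10 genes, 10 had an exact two-sided permutation p under 0.05 for Pearson r, and 0 did after Benjamini-Hochberg adjustment over the 45 (smallest adjusted p = 0.096). The permutation treats the 9 libraries as exchangeable and takes no account of genotype or of the deviations that same-numbered HET and KO libraries share, so that these p-values may be too small. In the 7 libraries without HET replicate 3 and KO replicate 3, the counts were 3 and 0. Over the 9 libraries, 0 of the 14 pairs of *Arntl* and *Cry1* with the E-box driven genes had an unadjusted permutation p under 0.05. Their smallest adjusted p in that test was 0.21. Of the 7 such pairs of *Clock*, 2 were under 0.05, those with *Nr1d1* and *Nr1d2*, each at a positive r. *Dbp* and *Nr1d1* were the most closely related pair. Their r was 0.85 (exact permutation p = 0.0021, adjusted p = 0.096) and their rho was 0.88 (exact permutation p = 0.0031, adjusted p = 0.14). Their r was 0.89 without the libraries farthest from the median of *Nr1d1* and 0.69 without HET replicate 3 and KO replicate 3. *Nr1d2* and *Ciart* had an r of 0.78 (exact permutation p = 0.013, adjusted p = 0.20) and a rho of 0.65 (exact permutation p = 0.067, adjusted p = 0.32). It was 0.55 without the libraries farthest from the median of *Ciart* and 0.86 in the 7 libraries.

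Some pairs ran against the arms. *Clock* went with *Nr1d1*, at an r of 0.77 (exact permutation p = 0.014, adjusted p = 0.20) and a rho of 0.73 (exact permutation p = 0.031, adjusted p = 0.32), and the r was 0.60 without the libraries farthest from the median of *Nr1d1* and 0.57 in the 7 libraries. *Clock* and *Cry1* had an r of -0.72 (exact permutation p = 0.027, adjusted p = 0.20) and a rho of -0.83 (exact permutation p = 0.0083, adjusted p = 0.19), with -0.76 without the libraries farthest from the median of *Clock* and -0.69 in the 7 libraries. *Per3* and *Dbp*, both E-box driven, had an r of -0.76 (exact permutation p = 0.023, adjusted p = 0.20) and a rho of -0.55 (exact permutation p = 0.13, adjusted p = 0.35). That relation rested on HET replicate 3 and KO replicate 3, which were also the farthest from the median of *Per3*, since the r was 0.16 without them. All these points share libraries, and each replicate number or genotype holds 3 libraries, too few for a relation within it.

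**Figure D3:**
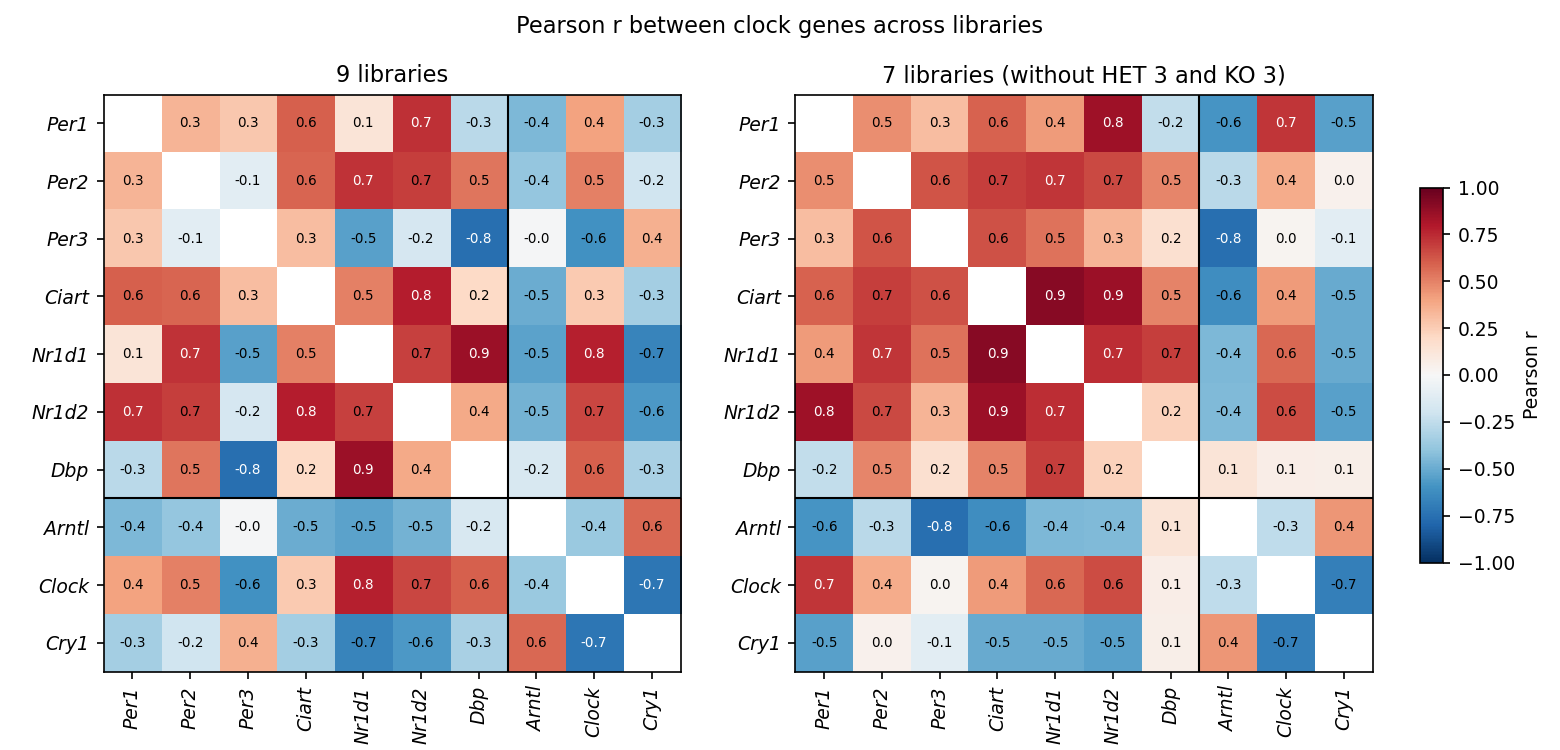
Pearson r between each pair of the 10 clock genes (rows and columns, colour from -1 to 1, rounded value in each cell) over all 9 libraries (left) and over 7 libraries without HET replicate 3 and KO replicate 3 (right), with lines that part the 7 E-box driven genes from *Arntl*, *Clock* and *Cry1*. *Arntl* and *Cry1* are mostly blue against the 7 genes on both sides, *Clock* is not, and *Per3* turns from -0.76 to 0.16 against *Dbp*.

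HET replicate 3 and KO replicate 3 differed most from the other 7 libraries in *Dbp* and *Nr1d1* among the clock genes. *Dbp* was 0.64 higher on the log2 scale (percentile 96.5 of all genes tested) and *Nr1d1* 0.49 higher (percentile 93.3), while *Per3* was lower, at -0.32 (percentile 15.5). *Arntl* was at -0.11 and *Cry1* at -0.21 in the same libraries, and *Clock* at 0.25. Over all genes, the difference of these libraries moved with the GC content of the transcripts, from a median of -0.091 in the decile of lowest GC to 0.11 in the decile of highest GC. *Dbp* (56.7% GC) and *Nr1d1* (56.4% GC) belong to the ninth decile, whose median was 0.068. After a correction of every library for transcript GC, chosen after the data were seen, *Dbp* was 0.56 and *Nr1d1* 0.42 higher, and *Per3* was at -0.34. *Clock* has the lowest GC of the 10 genes (41.4%) and was at 0.33 after the correction.

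**Figure D4:**
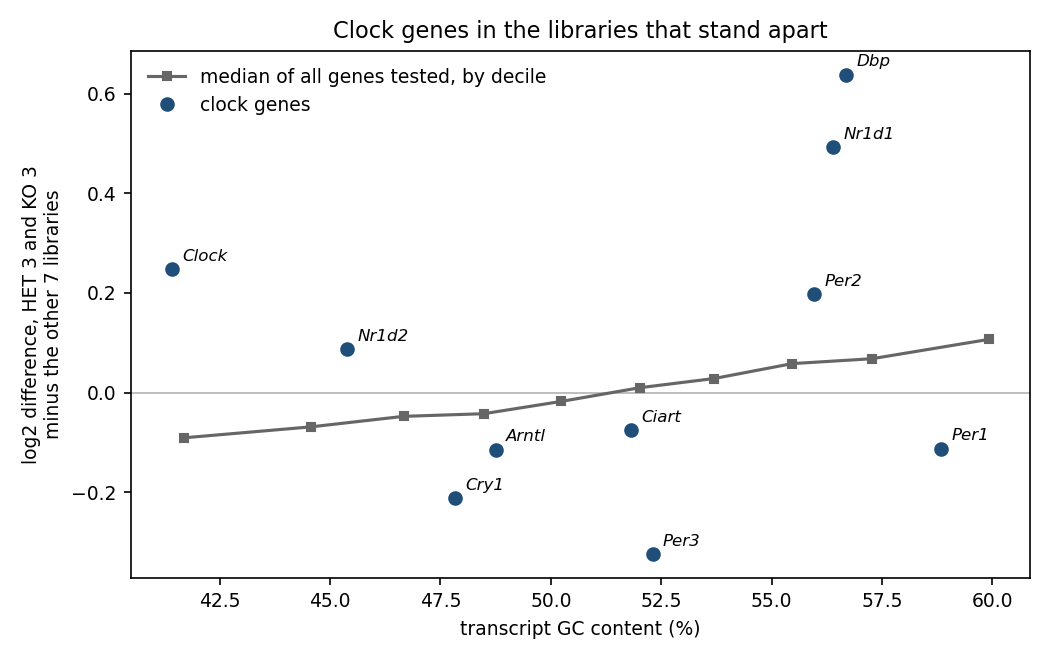
Log2 difference between the mean of HET replicate 3 and KO replicate 3 and the mean of the other 7 libraries (y axis) against transcript GC content in percent (x axis), with grey squares for the median of each decile of all genes tested and labelled points for the 10 clock genes. *Dbp* (0.64) and *Nr1d1* (0.49) lie above the rising line of medians, and *Per3* (-0.32) lies below it.

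Several clock genes were highest or lowest in the same replicate number of all genotypes, which was noticed after the values were seen. *Per1* and *Ciart* were highest in replicate 1 of all 3 genotypes, as were 10.5% of all genes tested. *Arntl* and *Cry1* were highest in replicate 2 of all 3 genotypes, as were 3.40% of all genes. *Ciart*, *Nr1d1* and *Nr1d2* were lowest in replicate 2 of all 3 genotypes, as were 3.24% of all genes. None of the 10 was lowest in replicate 1 of all 3 genotypes (11.2% of all genes), and none was highest (8.22%) or lowest (8.86%) in replicate 3 of all 3. Replicate 2 was thus the lowest library for *Ciart*, *Nr1d1* and *Nr1d2* and the highest for *Arntl* and *Cry1* within each genotype. Some of these gaps were small, as for *Nr1d1* in WT (4599 against 4649.9 and 4666) and *Arntl* in KO (1108 against 1090.1 and 984). *Dbp* and *Per2* were lowest in replicate 2 of HET and KO but not of WT, where *Dbp* was highest in replicate 2 (4297). With the replicate number as a term beside genotype in limma, 6 of the 10 genes had an unadjusted p under 0.05 for the number, against 21.4% of all genes, and 0 passed after adjustment, as did 0% of all genes. These were *Per1*, *Ciart*, *Nr1d1*, *Dbp*, *Arntl* and *Cry1*. The number held a median of 60.4% of the sum of squares of the 10 genes and 40.8% of that of all genes tested, while genotype held 10.9% and 12.2%. The sources used here do not say whether a number marks a litter, a day or an order of processing.

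For replicate 1 against the others, *Per1* was 0.44 higher on the log2 scale (SE 0.093, adjusted p = 0.090 in limma) and *Ciart* 0.33 higher (SE 0.080, adjusted p = 0.11 in limma), in 3 of 3 genotypes each, and 0.344% of all genes passed the adjusted threshold. For replicate 2 against the others, *Arntl* was 0.22 higher (SE 0.074) and *Cry1* 0.29 higher (SE 0.096), while *Ciart* was at -0.47 (SE 0.080). In that contrast, 6 of the 10 clock genes had an unadjusted p under 0.05 in limma (the 3 just named with *Per1*, *Nr1d1* and *Nr1d2*), against 6.1% of all genes, and none passed after adjustment, as did 0% of all genes. In the contrast of replicate 1 the count was 2 of 10 against 19.3% of all genes, and in that of replicate 3 it was 3 of 10 (*Dbp*, *Nr1d1* and *Arntl*) against 26.1%, with 0 of 10 past the adjusted threshold against 0.014% of all genes.

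**Figure D5:**
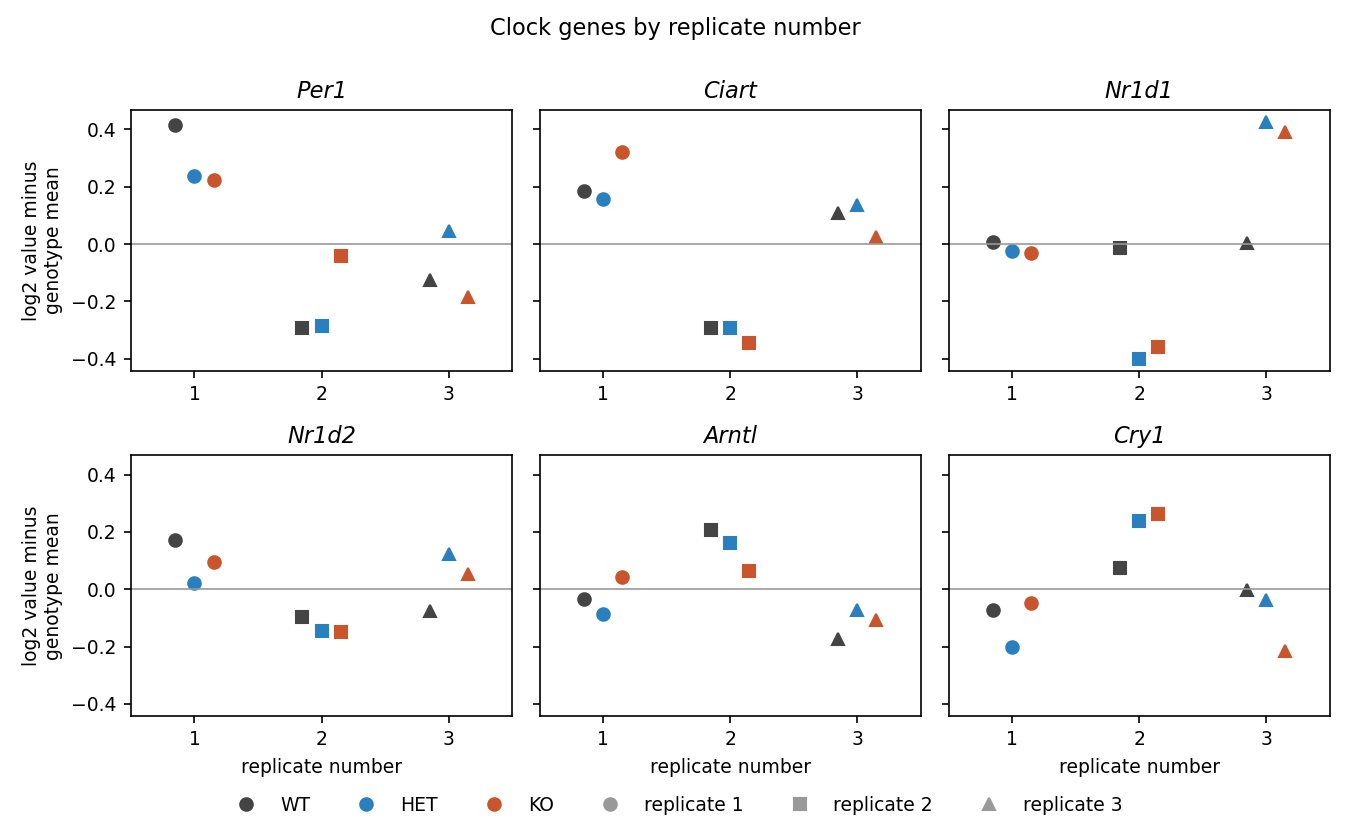
Log2 values of *Per1*, *Ciart*, *Nr1d1*, *Nr1d2*, *Arntl* and *Cry1* minus the mean of their genotype (y axis) by replicate number (x axis), with 1 point per library and colour for the genotype. The 3 points of replicate 2 lie lowest within their genotype for *Ciart*, *Nr1d1* and *Nr1d2* and highest for *Arntl* and *Cry1*, and those of replicate 1 lie highest for *Per1* and *Ciart*.

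To see which genes followed a clock gene most closely, all 12690 genes with a mean of at least 50 were ranked by Pearson r over the 9 libraries. The genes most like *Arntl* were *Wdr83os* (0.93), *Dtx3* (0.93), *Insyn1* (0.91), *Tagln* (0.90) and *Add1* (0.90). Among the clock genes, *Cry1* came closest to *Arntl* at rank 597 (0.57), and *Nr1d1* was at rank 12023 (-0.53). The genes most like *Dbp* were *Blvrb* (0.98), *Cfap20* (0.97), *Piezo1* (0.97), *Colgalt1* (0.97) and *Psmc2* (0.97). *Nr1d1* was at rank 616 for *Dbp* (0.85) and *Per3* at rank 11635 (-0.76). Both rankings include HET replicate 3 and KO replicate 3, which held the highest *Dbp* values and stood apart over all genes. The rankings were not repeated without these libraries.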

How the data were processed

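RNA-seq of the striatum of 9 mice was used, with 1 library per mouse. Per the labels and methods, the authors quantified transcripts with Salmon 0.9.1 (GRCm38, GC correction), summed them by tximport and divided by DESeq2 1.19.11 size factors (R 3.6.0), and this normalized count is the deposited signal. Groups came from the labels, and 0 columns were left unused. Whole reads could not be recovered, so depth is unknown and a count test was not run. Values were transformed as log2(normalized count + 1), which understates changes of low genes, and fitted with limma 3.58.1 (trend, genotype as factor) in R 4.3.3. The limma p-values set a difference against the spread between mice within groups. That spread was estimated from all 9 libraries, with 3 mice per genotype, and moderated over all genes. The 10 genes, the gene lists and the tests were chosen with earlier results of these data known. Named genes were the 10 members, the 3 other clock genes of largest difference per comparison, 2 genes per further list and the 5 genes most like *Arntl* and *Dbp*. The others were chosen after their values were seen. Promoter sequences are from RefSeq and gene positions from GENCODE (GRCm38). The GC correction, added after the data were seen, removed a lowess curve (span 0.3) of each library over transcript GC. The fit was tested on simulated data. Correlations of same-numbered libraries' deviations from their genotype mean were 0.52, 0.28 and 0.51 for HET with KO. An alternative fit with a replicate block therefore treated these numbers as paired, from the data and not from the labels. The main fits, with their intervals and p-values, held genotype only and took no account of the pairing. No pair of libraries held identical values. Python 3.11.15, NumPy 2.4.6, SciPy 1.17.1 and matplotlib 3.10.9 were used.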

Additional observations from a re-analysis of the deposited data

How the results depend on the processing

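In HET against WT, KO against WT and KO against HET, 0 genes passed the adjusted threshold of limma under every alternative run, and the smallest adjusted p of a clock gene in any of them was 0.974. The count at an unadjusted p under 0.05 was 158, 117 and 186, and it lay between 116 and 393, 70 and 289, and 141 and 298 when 1 library was left out. It moved by over 1.5 times without WT replicate 3 (265), HET replicate 1 (287) or HET replicate 2 (393) in HET against WT, without WT replicate 2 (70) or WT replicate 3 (289) in KO against WT, and without HET replicate 2 (298) or HET replicate 3 (286) in KO against HET. With the replicate block it was 365, 310 and 318 (370, 317 and 327 on GC-adjusted values), and without HET replicate 3 and KO replicate 3 it was 271, 217 and 223. A mean of at least 50 left 74 genes in KO against WT, and no trend in the prior gave 176. Same-numbered WT and HET libraries correlated at 0.32, -0.014 and 0.0054, and WT and KO at 0.24, -0.22 and 0.024. The replicate block and the replicate number term still gave WT the same number effect as HET and KO. For replicates 2 and 3, these WT correlations give little ground for that, which limits block results against WT. Under the replicate block, *Ciart* had an unadjusted limma p of 0.0014 in HET against WT and 0.0020 in KO against WT (adjusted p = 0.995 and 0.999), and no adjusted call changed.

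The 10 genes gave 30 fitted differences, and 12 alternatives other than leaving out 1 library gave 360 values, of which 353 kept their direction. Without HET replicate 3 and KO replicate 3, chosen from earlier results of these data, *Dbp* was at -0.28 and *Clock* at -0.050 in HET against WT, *Arntl* at 0.0034 and *Cry1* at 0.0066 in KO against WT, and *Per3* with *Dbp* at an r of 0.16. *Nr1d1* in KO against HET was at -0.00084 with median ratio rescaling and at -0.0072 with GC-adjusted values, with or without the replicate block, the last pair added after the data were seen. The cause was not tested.

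Leaving out 1 library turned the direction of 19 of the 30. In HET against WT these were *Per1* (-0.31 to 0.045), *Nr1d1* (-0.29 to 0.12), *Nr1d2* (-0.14 to 0.0045), *Dbp* (-0.28 to 0.19), *Arntl* (-0.033 to 0.16) and *Clock* (-0.05 to 0.23). In KO against WT they were *Per1* (-0.092 to 0.26), *Per2* (-0.11 to 0.037), *Nr1d1* (-0.28 to 0.10), *Nr1d2* (-0.095 to 0.041), *Arntl* (-0.14 to 0.054), *Clock* (-0.0010 to 0.12) and *Cry1* (-0.23 to 0.0066). In KO against HET they were *Ciart* (-0.14 to 0.20), *Nr1d1* (-0.20 to 0.21), *Nr1d2* (-0.036 to 0.11), *Dbp* (-0.46 to 0.068), *Clock* (-0.16 to 0.12) and *Cry1* (-0.11 to 0.14). Of the differences that kept their direction, *Per2* (-0.46 to -0.21), *Per3* (-0.29 to -0.10), *Ciart* (-0.57 to -0.28) and *Cry1* (-0.25 to -0.027) moved in HET against WT, *Per3* (-0.14 to -0.0063), *Ciart* (-0.56 to -0.23) and *Dbp* (-0.43 to -0.077) in KO against WT, and *Per1* (0.074 to 0.34), *Per2* (0.16 to 0.41), *Per3* (0.014 to 0.21) and *Arntl* (-0.15 to -0.024) in KO against HET. Opposed pairs with a negative r numbered 12 to 14 of 21 when 1 library was left out. A count test was not run, since whole reads could not be recovered. The 3 mice per genotype and the unknown depth limit these values.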

Other observations

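Genes that respond to stress hormone and to neuronal activity were listed beside the clock genes, because *Per1* is also induced by glucocorticoids and by CREB signalling. None of the 11 glucocorticoid-induced genes, 13 immediate early genes and 6 temperature-linked genes tested passed the adjusted threshold of limma in any of the 3 genotype comparisons, and none had an unadjusted p under 0.05. Of all genes, 0% passed the adjusted threshold. The unadjusted one was passed by 1.11% in HET against WT, 0.822% in KO against WT and 1.31% in KO against HET. The median log2 difference of the immediate early genes was -0.099 in HET against WT, 0.15 in KO against WT and 0.30 in KO against HET, with 13 of 13 fitted higher in KO than in HET. Over all genes tested it was -0.0027, 0.0047 and -0.00099. *Fos* ranged from 761 normalized counts in HET replicate 1 to 2752 in KO replicate 2, and *Btg2* from 406 to 1748 in the same libraries. Of the glucocorticoid-induced genes, *Plin4* ranged from 59.1 to 155. *Hspa1a*, a heat-shock gene, ranged from 333 to 662 and was highest in KO replicate 3, and *Rbm3*, a cold-induced gene, ranged from 2059.7 to 3238.

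*Sgk1*, a kinase gene induced by glucocorticoids, was high in replicate 1 of each genotype, at 4531 in WT, 5653 in HET and 5512 in KO. In the other 6 libraries it lay between 1621 and 2369, with no overlap. With the replicate number as a term beside genotype, replicate 1 was 1.39 higher than the others on the log2 scale (SE 0.14, adjusted p = 0.031 in limma), in 3 of 3 genotypes. This contrast was chosen after the values were seen, so its p-value and the 3 of 3 are no independent support. In it, 0.344% of all genes passed the adjusted threshold. The limma F test over all replicate numbers gave *Sgk1* an adjusted p of 0.060, and 0% of all genes passed there. The other glucocorticoid-induced genes did not all follow the number. *Tsc22d3* was 0.66 higher in replicate 1, *Plin4* 0.53, *Errfi1* 0.46, *Cdkn1a* 0.44 and *Fkbp5* 0.38, while *Zbtb16* was at -0.087. The unadjusted limma F test p for the number was 0.00030 for *Cdkn1a*, 0.0021 for *Errfi1*, 0.0025 for *Tsc22d3*, 0.0032 for *Fkbp5* and 0.012 for *Pdk4*. It was 0.055 for *Plin4*, 0.31 for *Mt1*, 0.43 for *Mt2*, 0.23 for *Sult1a1* and 0.77 for *Zbtb16*. Of all genes, 21.4% had one under 0.05. Of the further clock genes, the E-box gene *Bhlhe40* was lowest in replicate 2 of each genotype, at 2230.3 in WT, 2022 in HET and 1902 in KO. This held for 3.24% of all genes tested. *Bhlhe41* was lowest in replicate 2 of WT and HET but not of KO, and *Usp2* was highest in replicate 2 of WT (2575).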
